A study of Gallus gallus with 9 samples.

Results

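The motile cilium and axoneme genes described here were the genes of the deposited FPKM table whose symbol begins with CFAP, DNAH, DNAI, DNAL, DNAAF, RSPH, TEKT, DRC or SPEF, together with *SPAG6*, *SPAG16*, *SPAG17*, *CCDC39*, *CCDC40*, *HYDIN*, *FOXJ1* and *LRRC6*. The rule used names only, and it found 48 of 24880 genes, with no row for *SPAG17*. A further 11868 genes carried no symbol and could not be reached by it. The libraries came from the apex, middle and base of the basilar papilla, the hearing organ of the chicken cochlear duct, at post-hatch day 1. All 3 groups were untreated, and each had 3 replicates, which gave 9 RNA-seq libraries in all. RNA from 12 chickens (24 cochleas) was pooled, so that a replicate held 8 cochleas of 4 chickens. Each piece was bulk tissue with hair cells, supporting cells and adjoining tissue.

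An axoneme is the microtubule core of a cilium, a ring of doublet microtubules that in motile cilia surrounds a central pair. Dynein arms slide the doublets, radial spokes and the central apparatus pass on the control of that sliding, the nexin-dynein regulatory complex links neighbouring doublets, and tektins and other proteins line the inside of the tubules. Each hair cell of the basilar papilla carries a kinocilium, a cilium with an axoneme that stands beside the stereocilia of the hair bundle.

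Most of these genes were low. FPKM counts the fragments of a gene relative to its transcript length and to the size of the library, so levels can be set side by side between genes of different length. The median of the means over the 9 libraries was 1.36 FPKM for all 48 members, 17 of which did not reach a mean of 1 FPKM in any region. The genes tested, which all reached it in at least 1 region, had a median of 15.4 FPKM. These medians rest on unlike sets, and the filter raises the second. Only 3 members had a mean of at least 10, another 23 lay between 1 and 10, and 22 were under 1. *SPEF1*, which codes for a protein of the central pair, was listed at 0 in every library. A mean of at least 1 was reached by 31 members in the apex, 25 in the middle and 18 in the base. Single apex libraries had 28 to 32 members at or above 1 FPKM, middle libraries 25 to 30 and base libraries 16 to 21. For 8 members (*CFAP44*, *CFAP45*, *CFAP74*, *DNAAF2*, *DNAH1*, *DNAH7*, *RSPH14* and *TEKT2*) the table gives the same locus to at least 1 other gene, and their values are uncertain for that reason.

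The libraries were alike in scale. Summed FPKM lay between 660314 and 741975, and from 12477 to 12779 genes reached an FPKM of 1 in a library. The number of fragments is not part of the table, and the paper gives only a range of read pairs per replicate. An estimate of its relative size, taken from the spacing of the lowest values, was 1.09 to 1.44 in apex libraries, 1.08 to 1.61 in middle libraries and 1 to 1.18 in base libraries, with base replicate 1 set to 1. The part of depth in the values of the lowest genes was not tested.

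The level of these genes was graded along the papilla, with the apex highest. In 46 of the 47 detected members the apex mean was above the base mean, a count for which no share over all genes is given. The means were ordered apex over middle over base in 34 of the 47 detected members (72.3%), which 24.3% of all detected genes also showed. The median log2 fold change on the log2(FPKM + 1) scale over the 47 detected members was 0.44 for the apex over the base, 0.22 for the middle over the base and 0.14 for the apex over the middle. Over all 16509 detected genes the medians lay at 0.00. As plain ratios of mean FPKM, the members' medians were 2.14, 1.58 and 1.31. Every apex library was above every base library for 29 members, while 18.5% of all detected genes had that order. In 36 members the apex library exceeded the base library of the same number in all 3 replicates, against 29.1% of all detected genes.

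**Figure D1:**
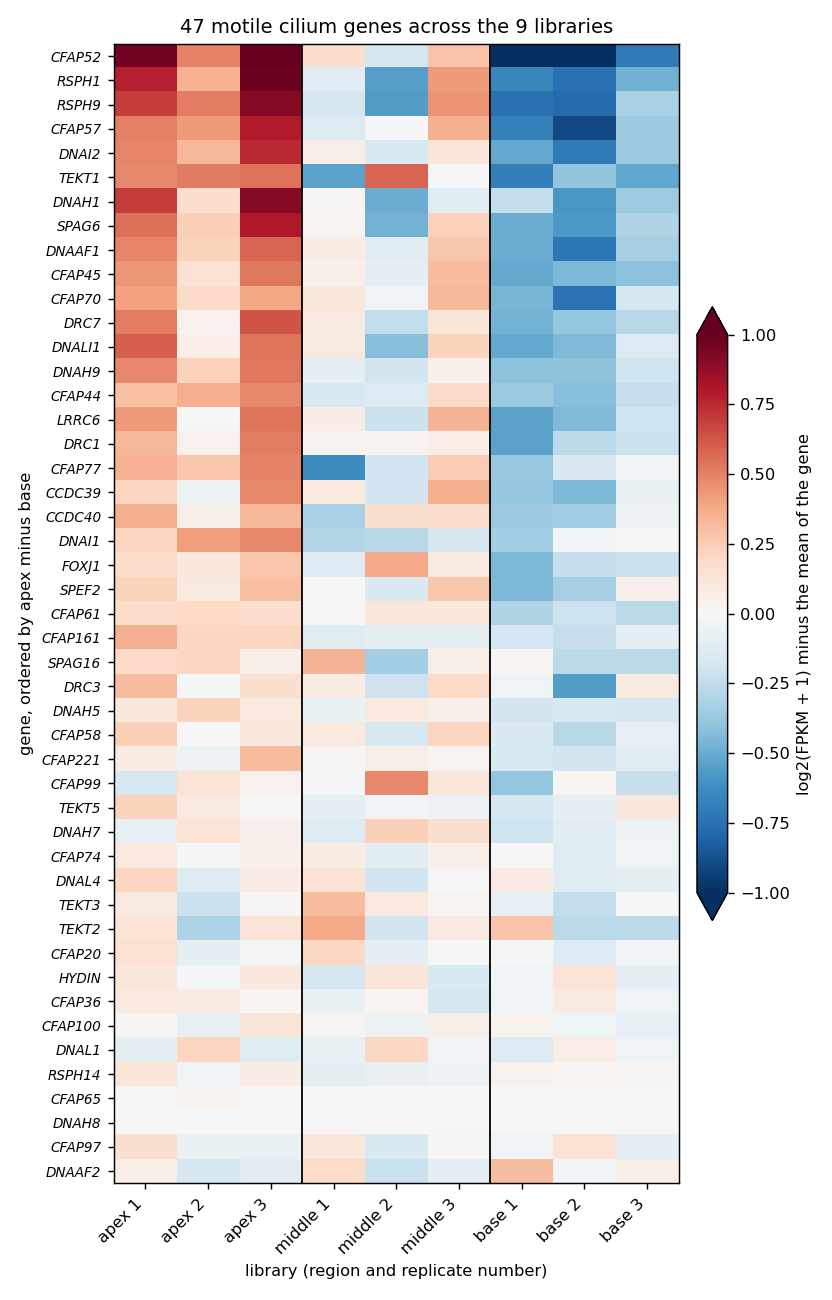
Log2(FPKM + 1) of the 47 detected members in the 9 libraries, with the mean of each gene subtracted. Rows are genes ordered by the difference between apex and base, columns are libraries by region and replicate number, and colours beyond 1 in either direction are drawn at the ends of the scale. The upper rows are above their mean in the 3 apex libraries and below it in the 3 base libraries, and the lower rows change little.

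For the apex against the base, 18 members were DEGs, all higher in the apex, and 0 were lower. At an unadjusted p under 0.05, 21 of the 31 tested members were higher and 0 lower, and 35.5% of all tested genes passed in either direction. A gene was called a DEG when the Benjamini-Hochberg adjusted p of limma over all 13045 tested genes was under 0.05 and the ratio of mean FPKM was at least 1.5, and 11.8% of the tested genes met this in either direction, 7.15% as higher in the apex and 4.66% as lower. Of the 48 members, 31 reached a mean of 1 FPKM in 1 or more regions and were tested. Of these 31, 6 passed that filter only through their apex mean (*CFAP58*, *CFAP77*, *DNAH1*, *DNAH9*, *DRC7* and *RSPH1*) and 13 did not reach it in the base, so the count over the members that passed is favoured by the filter. With no filter, all 47 detected members entered, and 22 were higher in the apex and 0 lower, with 10% of 16509 genes called in either direction and 6.21% as higher. With a filter on the mean over all 9 libraries, chosen after seeing the data, 15 of 26 members were called, with 11.7% of the tested genes called. With the replicate number as a block, 20 members were called, where 15.1% of the tested genes were called in either direction and 9.57% as higher. The block added *CCDC39* and *CFAP77*. With the block and no filter together, a choice made after seeing the data, 29 of 47 members were higher and 0 lower, where 13.3% of all detected genes were called in either direction and 8.63% as higher. All 18 members also met the study's formula for Up-trend genes, in which the apex is 1.5 times the base or more and no step falls under 0.85, but that formula uses the same values.

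**Figure D2:**
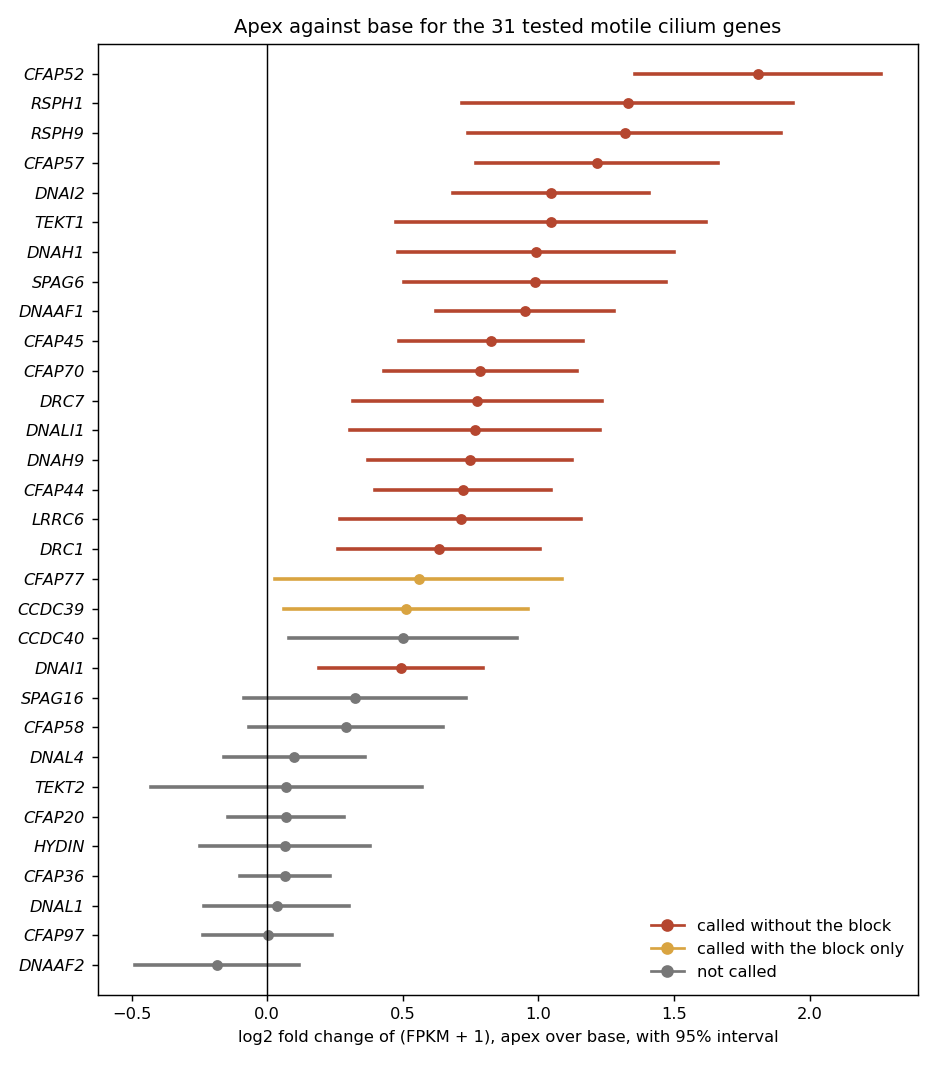
Log2 fold change of (FPKM + 1) of the apex over the base for the 31 tested members, with points for the estimate and bars for the 95% interval. Colours show calls by limma without the replicate block, with the block only, or neither. *CFAP52* is highest with 1.81, and the bars of the lowest members cross 0.

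The calls depended on single libraries and more so on a replicate number. Without apex replicate 3, 10 members were called (8.44% of all tested genes), and without base replicate 1, 11 members (7.63%). With any other single library left out, between 12 and 18 were called, among 8.77% to 12.9% of all tested genes. *CFAP44*, *CFAP45*, *CFAP52*, *CFAP57*, *CFAP70*, *DNAAF1*, *DNAI2*, *RSPH1*, *RSPH9* and *SPAG6* were called whichever library was left out. Without the libraries numbered 1, only *CFAP52* was called, among 4.76% of all tested genes, and without those numbered 3, 6 members were, among 7.1% of all tested genes. Without those numbered 2, 16 members were called, among 9.55% of all tested genes.

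The same libraries differed in the markers of several cell types, and in bulk samples fewer cells of a type and less RNA per cell cannot be told apart. Of 19 tested hair cell markers, 15 were higher in the apex than in the base and 0 lower, and with the block 16 were higher and 1 lower. The median log2 fold change of these markers was 1.83. Their summed FPKM was between 641 and 926 in apex libraries, between 473 and 741 in middle libraries and between 256 and 393 in base libraries. *OTOA* alone averaged 290 FPKM in the apex, 335 FPKM in the middle and 204 FPKM in the base, the highest of the list in each region. It makes up a large part of these sums, and whether it marks hair cells here was not tested. None of the 19 was at 0 in all libraries, and *ATOH1*, *STRC* and *OCM* had no row by symbol. Of 12 supporting cell markers, 7 were higher and 1 lower in the apex (8 and 1 with the block), with a summed FPKM of 2644 to 3594 in the apex, 2324 to 4171 in the middle and 1313 to 2037 in the base. *TECTB* alone averaged 2014 FPKM in the apex, 2307 FPKM in the middle and 860 FPKM in the base, a large part of these sums. Of 4 tested Schwann cell markers, 3 were higher in the apex (4 with the block), with sums of 1705 to 2459 in the apex, 1601 to 2641 in the middle and 934 to 1165 in the base. Here *PMP22* alone averaged 1396 FPKM in the apex, 1414 FPKM in the middle and 714 FPKM in the base. Of 6 mesenchyme markers 1 was lower in the apex, with sums of 3110 to 3954 in the apex and 4049 to 4880 in the base, and *COL1A1* was at 0. *OTOL1*, an otoconia gene known from vestibular end organs such as the lagena at the tip of the cochlear duct, had 24.6, 6.85 and 6.97 FPKM in the apex, 1.17, 0.467 and 1.05 FPKM in the middle and 2.89, 0.269 and 1.97 FPKM in the base. For apex against base it was the only one called of 3 tested lagena and otoconia markers, without or with the block. At an unadjusted p under 0.05, 3 were higher in the apex than in the base. *GATA3* averaged 45.8 FPKM in the apex, 54.7 FPKM in the middle and 30.5 FPKM in the base. With the block it was called for middle against base (adjusted p = 0.00107 by limma). In the same order *OTOP1* averaged 4.22, 2.07 and 1.40 FPKM, and *OTOP2*, which was not tested, 0.321, 0.120 and 0.333 FPKM. *OC90* had no row by symbol. Neuron markers summed to 229 to 1535 FPKM in the apex, 281 to 2901 FPKM in the middle and 164 to 677 FPKM in the base, with *PRPH* at 0. Of 11 tested, 1 was higher in the apex than in the base (3 with the block). The 1 was *ISL1*, which averaged 41.3 FPKM in the apex, 32.8 FPKM in the middle and 8.50 FPKM in the base. It was highest in replicate 3 and lowest in replicate 2 of each region, and whether it marks neurons here was not tested. For middle against base, 6 of the 11 were higher with the block, where 7.63% of all tested genes were. For apex against middle, 1 was higher and 2 were lower with the block, where 2.11% of all tested genes were called in either direction. *TUBB3*, *NEFL*, *NEFM*, *SNAP25* and *STMN2* were highest in replicate 2 of each region and were not called for apex against base, without or with the block. Of 8 macrophage and blood markers 0 were called by limma without the block, with 4 lower in the apex at an unadjusted p under 0.05, and 1 was higher with the block. The higher one was the haemoglobin gene *HBAD*, with 808, 406 and 3633 FPKM in the apex and 361, 304 and 606 FPKM in the base. Each of the other markers of this list with a row had a lower mean in the apex than in the base. The part of these tissues in the differences of the motile cilium genes was not tested.

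Among the dynein heavy chains, the motor subunits of the arms, *DNAH1* and *DNAH9* were the only 2 of 5 tested, and both were higher in the apex. Both passed the filter only through their apex mean. With no filter both were called (adjusted p = 0.0152 and 0.00310 by limma). With a filter of at least 1 FPKM in at least 6 libraries neither passed, so neither was tested. *DNAH1*, an inner-arm chain at chr12:3033148-3099125 of galGal5 as the table gives it, had 2.64, 1.53 and 3.22 FPKM in apex replicates 1 to 3, 1.27, 0.597 and 1.08 FPKM in the middle and 0.892, 0.498 and 0.751 FPKM in the base. Each apex library was above each middle and base library, and replicate 2 was lowest in every region. The apex over base log2 fold change was 0.99 ± 0.22 (SE, n = 3 per region, adjusted p = 0.0153 by limma). *DNAH9*, an outer-arm chain at chr18:1085142-1257267, had 1.14, 0.805 and 1.22 FPKM in the apex, 0.441, 0.357 and 0.591 FPKM in the middle and 0.158, 0.164 and 0.338 FPKM in the base. The 3 regions did not overlap, and the ratio of means between apex and base was 4.79 (log2 fold change 0.75 ± 0.16, adjusted p = 0.0139 by limma). *DNAH5*, also an outer-arm heavy chain, averaged 0.384 ± 0.0728 FPKM in the apex, 0.279 ± 0.0764 FPKM in the middle and 0.113 ± 0.0148 FPKM in the base (SD, n = 3 each). It lay under the filter and was called with no filter (adjusted p = 0.0101 by limma). *DNAH7*, an inner-arm chain, averaged 0.785 FPKM in the apex, 0.862 FPKM in the middle and 0.600 FPKM in the base and was not called. *DNAH8*, known from sperm, stayed under 0.01 FPKM in every library.

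Of the 5 dynein intermediate and light chains, *DNAI1*, *DNAI2* and *DNALI1* were higher in the apex, and the light chains *DNAL1* and *DNAL4* showed no call. *DNAI2*, an outer-arm intermediate chain at chr18:9203490-9209288, had 2.55, 2.19 and 3.25 FPKM in the apex, 1.64, 1.29 and 1.75 FPKM in the middle and 0.776, 0.557 and 0.970 FPKM in the base. Its 3 regions were separate in every library, and apex over base was 1.05 ± 0.16 on the log2 scale (adjusted p = 0.00298 by limma). *DNAI1*, its partner in the outer arm, had 2.67, 3.22 and 3.40 FPKM in the apex, 1.58, 1.61 and 1.81 FPKM in the middle and 1.5, 2.10 and 2.15 FPKM in the base. Here the middle libraries overlapped the base libraries and averaged 0.869 times their mean, and only the apex stood above both (apex over base 0.49 ± 0.13, adjusted p = 0.0302 by limma). *DNALI1*, an inner-arm light intermediate chain and the highest of the called members, had 11.7, 7.78 and 11.1 FPKM in the apex, 7.93, 5.25 and 8.79 FPKM in the middle and 4.87, 5.15 and 6.60 FPKM in the base. The middle overlapped both ends, and the apex did not overlap the base (0.77 ± 0.20, adjusted p = 0.0278 by limma). *DNAL4*, a light chain, had 34.8, 27.2 and 31.7 FPKM in the apex, 33.0, 26.0 and 29.9 FPKM in the middle and 31.6, 27.3 and 27.9 FPKM in the base. These ranges overlapped, with a log2 fold change of 0.10 and a 95% interval from -0.16 to 0.36. *DNAL1*, an outer-arm light chain, averaged 8.47 FPKM in the apex, 8.67 FPKM in the middle and 8.22 FPKM in the base.

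The assembly factors help to build dynein arms in the cytoplasm before they enter the cilium. *DNAAF1* and *LRRC6* were higher in the apex, and *DNAAF2* was the only detected member whose mean was lower there. *DNAAF1*, at chr11:2540320-2553499, had 9.03, 7.38 and 9.70 FPKM in the apex, 6.50, 5.61 and 7.59 FPKM in the middle and 4.07, 3.33 and 4.67 FPKM in the base. All middle libraries were above all base libraries, and 1 middle library was above the lowest apex library. Apex over base was 0.95 ± 0.14 (adjusted p = 0.00298 by limma). *LRRC6* had 3.01, 2.01 and 3.34 FPKM in the apex, 2.15, 1.57 and 2.79 FPKM in the middle and 1.07, 1.20 and 1.61 FPKM in the base. Apex and base did not overlap, at 0.71 ± 0.20 (adjusted p = 0.0317 by limma). *DNAAF2* had 7.30, 6.04 and 6.35 FPKM in the apex, 8.01, 5.81 and 6.41 FPKM in the middle and 8.83, 6.78 and 7.26 FPKM in the base. Each apex library was below the base library of the same number, the ranges overlapped, and the log2 fold change of -0.19 was not called (adjusted p = 0.363 by limma, 0.0612 with the block).

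The radial spoke head genes *RSPH1* and *RSPH9* showed some of the widest gradients. *RSPH1*, at chr1:109456396-109462667, had 2.04, 1.26 and 2.49 FPKM in the apex, 0.650, 0.211 and 1.38 FPKM in the middle and 0.129, 0.0576 and 0.271 FPKM in the base. The ratio of means was 12.7 between apex and base, the highest of the 46 members with a ratio, and rests on the low base values. On the log2(FPKM + 1) scale the difference was 1.33 ± 0.27 (adjusted p = 0.00973 by limma). *RSPH1* passed the filter only through its apex mean, and it was also called with no filter (adjusted p = 0.00965 by limma). *RSPH9*, at chr3:30886234-30905845, had 4.35, 3.72 and 5.26 FPKM in the apex, 1.95, 1.25 and 3.52 FPKM in the middle and 0.976, 0.945 and 1.65 FPKM in the base. The apex stood above all other libraries, and middle replicate 2 fell within the base range (apex over base 1.32 ± 0.25, adjusted p = 0.00811 by limma). *CFAP61*, which in *Chlamydomonas* belongs to a complex at the base of a spoke, averaged 0.749 ± 0.0212 FPKM in the apex, 0.623 ± 0.0685 FPKM in the middle and 0.287 ± 0.0438 FPKM in the base (SD, n = 3 each). It was under the filter and was called with no filter, both for the apex (adjusted p = 0.00246 by limma) and for the middle against the base (adjusted p = 0.0197 by limma). *RSPH14* averaged 0.179 FPKM in the apex, 0.0808 FPKM in the middle and 0.157 FPKM in the base and was the only member with every middle library below every base library, an order that 13.9% of all detected genes had.

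The nexin-dynein regulatory complex was represented by *DRC1*, *DRC3* and *DRC7*, and the ruler that sets the repeat along the doublet by *CCDC39* and *CCDC40*. *DRC1* had 1.62, 1.16 and 1.97 FPKM in the apex, 1.14, 1.14 and 1.18 FPKM in the middle and 0.438, 0.741 and 0.795 FPKM in the base, with no overlap between the base and the others (apex over base 0.63 ± 0.16, adjusted p = 0.0254 by limma). *DRC7*, at chr11:555416-567680, had 1.38, 0.710 and 1.58 FPKM in the apex, 0.763, 0.402 and 0.805 FPKM in the middle and 0.200, 0.272 and 0.369 FPKM in the base. Its apex and middle ranges overlapped while the base was separate (apex over base 0.78 ± 0.20, adjusted p = 0.0259 by limma). *DRC7* passed the filter only through its apex mean, and it was also called with no filter (adjusted p = 0.0153 by limma). *CCDC39* had 2.26, 1.72 and 2.93 FPKM in the apex, 2.01, 1.46 and 2.61 FPKM in the middle and 1.16, 1.06 and 1.70 FPKM in the base. The apex range lay just above the base range, and the call was reached only with the block (apex over base 0.51 ± 0.20, adjusted p = 0.101 by limma and 0.00782 with the block). *CCDC40* averaged 1.74 ± 0.304 FPKM in the apex, 1.33 ± 0.432 FPKM in the middle and 0.936 ± 0.245 FPKM in the base (SD, n = 3 each) and was called only with the block and no filter together. *DRC3*, under the filter at 0.772 FPKM in the apex, 0.621 FPKM in the middle and 0.440 FPKM in the base, was likewise called only with both.

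Of 8 central apparatus genes, 3 were tested and *SPAG6* alone was called. *SPAG6*, whose *Chlamydomonas* counterpart is needed for a stable central pair, lies at chr2:17711126-17743785. It had 3.33, 2.48 and 4.16 FPKM in the apex, 2.02, 1.13 and 2.46 FPKM in the middle and 1.10, 0.985 and 1.39 FPKM in the base. The apex was above all other libraries, with an apex over base log2 fold change of 0.99 ± 0.21 (adjusted p = 0.0125 by limma). *SPAG16*, also a central apparatus gene, had 2.78, 2.85 and 2.44 FPKM in the apex, 3.20, 1.61 and 2.45 FPKM in the middle and 2.36, 1.75 and 1.76 FPKM in the base. Although each apex library was above each base library, the middle libraries spread across both, and the difference of 0.32 was not called (adjusted p = 0.237 by limma). *HYDIN*, which codes for a large projection protein of the central pair, averaged 1.51 ± 0.124 FPKM in the apex, 1.29 ± 0.276 FPKM in the middle and 1.40 ± 0.203 FPKM in the base (SD, n = 3 each). Its apex over base interval ran from -0.25 to 0.38. Of the genes under the filter, *SPEF2* averaged 0.924 FPKM in the apex, 0.731 FPKM in the middle and 0.426 FPKM in the base, and *CFAP221* averaged 0.254 FPKM in the apex, 0.178 FPKM in the middle and 0.0411 FPKM in the base. These were called with the block and no filter together. *CFAP74* averaged 0.863 FPKM in the apex, 0.816 FPKM in the middle and 0.736 FPKM in the base, and *CFAP65* was at or near 0, with all 3 base libraries listed at 0.

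The genes for tektins and other proteins inside the doublet included the member with the largest apex over base difference on the log2(FPKM + 1) scale, *CFAP52*, and the member with the highest level, *CFAP20*. *CFAP52*, at chr18:2219938-2238454, had 5.94, 4.03 and 6.65 FPKM in the apex, 3.02, 2.17 and 3.33 FPKM in the middle and 0.702, 0.656 and 1.19 FPKM in the base. The 3 regions did not overlap, and apex over base was 1.81 ± 0.20 (adjusted p = 0.00121 by limma). *CFAP45*, whose locus entry is shared with 42 other genes, had 3.14, 2.38 and 3.40 FPKM in the apex, 2.16, 1.87 and 2.80 FPKM in the middle and 1.15, 1.24 and 1.30 FPKM in the base. Apex and middle overlapped, and the base was separate from both (0.83 ± 0.15, adjusted p = 0.00613 by limma). *TEKT1*, a tektin at chr19:9922276-9928544, had 2.43, 2.53 and 2.57 FPKM in the apex, 0.696, 2.68 and 1.46 FPKM in the middle and 0.530, 0.871 and 0.717 FPKM in the base. The middle covered almost the whole range of the other regions (apex over base 1.05 ± 0.25, adjusted p = 0.0193 by limma). *CFAP20*, known from the inner junction of the doublet and the highest of all 48 members, had 61.8, 51.7 and 54.7 FPKM in the apex, 64.1, 52.1 and 55.6 FPKM in the middle and 55.0, 50.6 and 54.2 FPKM in the base. These ranges overlapped, and the interval of apex over base ran from -0.15 to 0.28. *CFAP77* averaged 1.19 ± 0.173 FPKM in the apex, 0.523 ± 0.459 FPKM in the middle and 0.489 ± 0.182 FPKM in the base (SD, n = 3 each; adjusted p = 0.123 by limma and 0.0428 with the block). It passed the filter only through its apex mean. *CFAP161*, under the filter, averaged 0.408 ± 0.0876 FPKM in the apex, 0.0904 ± 0.0144 FPKM in the middle and 0.0470 ± 0.0510 FPKM in the base and was called with no filter (adjusted p = 0.00298 by limma). *TEKT2* averaged 1.76 FPKM in the apex, 1.98 FPKM in the middle and 1.64 FPKM in the base, and *TEKT3* and *TEKT5* stayed under 1 FPKM in every library. None of these 3 tektin genes was called in any of the fits without or with the block and filter.

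Of the 8 other CFAP genes, *CFAP44*, *CFAP57* and *CFAP70* were higher in the apex. *CFAP57* is known from the inner dynein arms and lies at chr8:19691443-19711677. It had 2.51, 2.32 and 3.30 FPKM in the apex, 1.27, 1.46 and 2.17 FPKM in the middle and 0.553, 0.329 and 0.930 FPKM in the base, with no overlap between regions. Apex over base was 1.22 ± 0.20 (adjusted p = 0.00383 by limma). *CFAP44*, a protein of the dynein tether whose locus entry is shared with 8 other genes, had 2.04, 2.19 and 2.47 FPKM in the apex, 1.23, 1.26 and 1.84 FPKM in the middle and 0.920, 0.846 and 1.12 FPKM in the base. The 3 regions were again separate (0.72 ± 0.14, adjusted p = 0.00902 by limma). *CFAP70*, known from the outer dynein arm, had 6.08, 5.14 and 6.01 FPKM in the apex, 4.79, 4.25 and 5.75 FPKM in the middle and 2.88, 2.23 and 3.74 FPKM in the base, with the base below every other library (0.79 ± 0.16, adjusted p = 0.00931 by limma). *CFAP36* had 18.3, 18.1 and 17.3 FPKM in the apex, 16.2, 17.3 and 14.9 FPKM in the middle and 16.6, 18.1 and 16.4 FPKM in the base, which overlapped (apex over base interval -0.10 to 0.23). *CFAP97* averaged 9.51 FPKM in the apex, 9.32 FPKM in the middle and 9.50 FPKM in the base. *CFAP58*, known from sperm flagella, averaged 1.07 FPKM in the apex, 0.981 FPKM in the middle and 0.691 FPKM in the base and was called with the block and no filter together, while *CFAP99* and *CFAP100* were not called for apex against base in any of these fits. *CFAP99* was highest in the middle, with means of 0.588 FPKM in the apex, 0.819 FPKM in the middle and 0.378 FPKM in the base. For middle against base it was called with the block and no filter together (adjusted p = 0.00938 by limma).

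**Figure D3:**
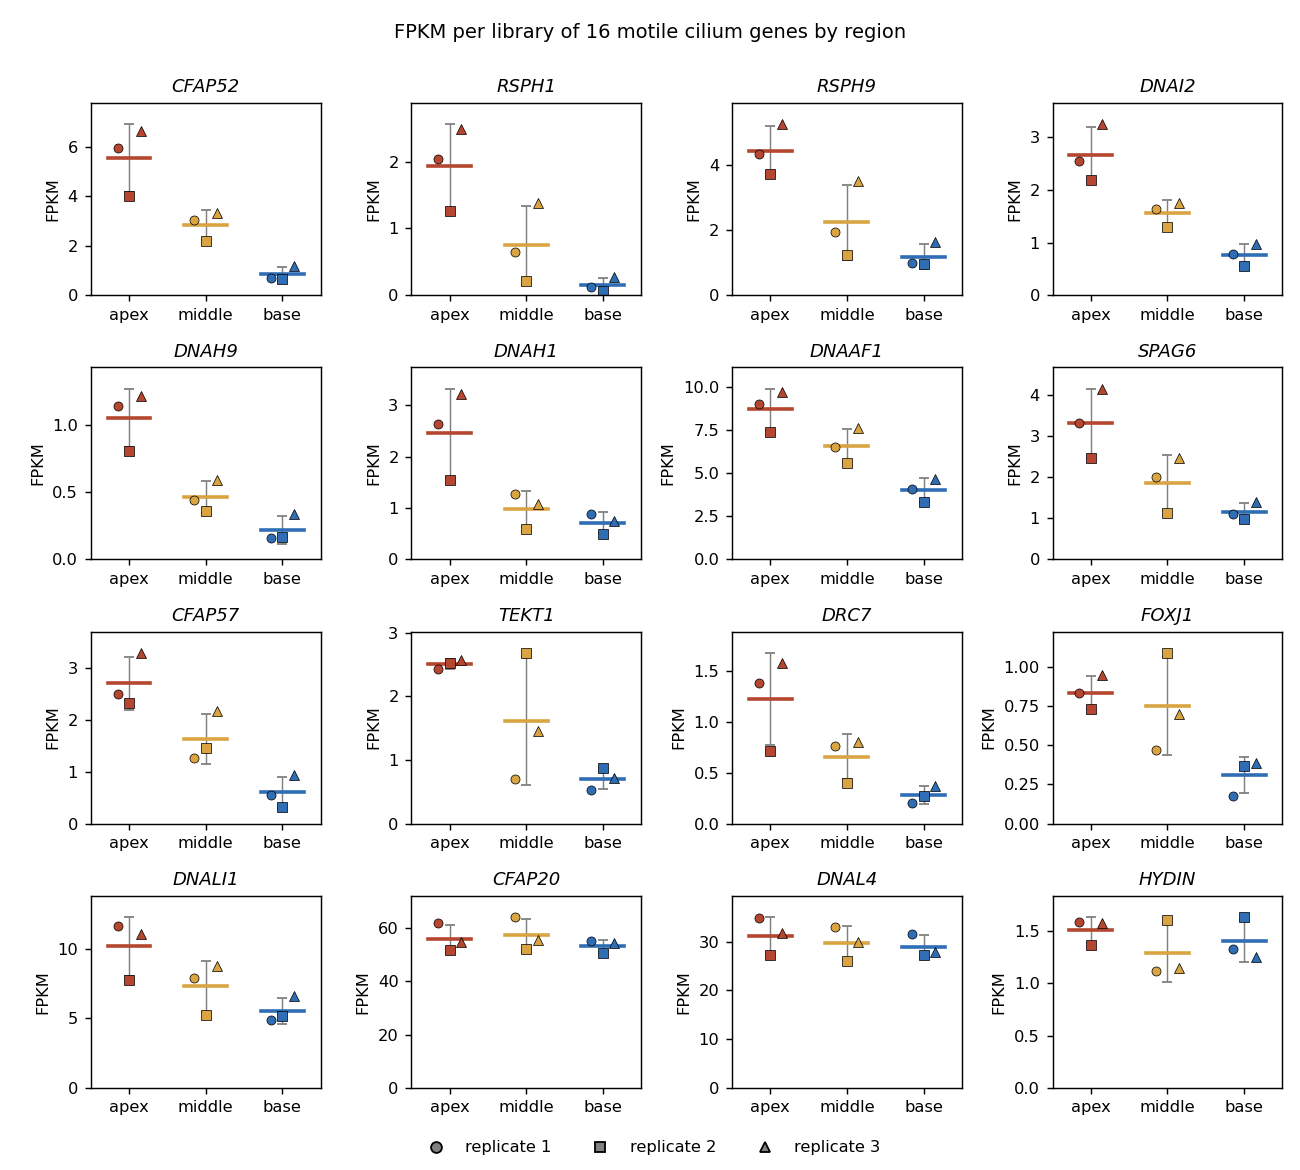
FPKM of 16 members in each library, in apex, middle and base from left to right. Marker shapes give the replicate number, coloured bars the mean of 3 libraries and grey bars 1 SD, and each vertical axis starts at 0 with its own range. *CFAP52* falls into 3 separate groups, and *CFAP20*, *DNAL4* and *HYDIN* overlap between regions.

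*FOXJ1*, the transcription factor that switches on the motile cilium programme, stayed under the filter. It had 0.830, 0.732 and 0.946 FPKM in the apex, 0.468, 1.09 and 0.700 FPKM in the middle and 0.178, 0.366 and 0.386 FPKM in the base. Both other regions were above the base in every library, while apex and middle overlapped. With no filter the apex over base log2 fold change was 0.49 (adjusted p = 0.0349 by limma), and the middle over base change of 0.41 was called only with the block (adjusted p = 0.0473, against 0.105 without it). Of the other listed regulators of multiciliated cells, *E2F4* averaged 16.8 FPKM in the apex, 16.7 FPKM in the middle and 16.8 FPKM in the base. *E2F5* averaged 18.0 FPKM in the apex, 17.7 FPKM in the middle and 22.8 FPKM in the base. The remaining ones averaged at most 1.28 FPKM in any region. *GMNC* averaged 0.141 FPKM in the apex and 0.0327 FPKM in the base, *CCNO* averaged 0.695 FPKM in the apex and 0.188 FPKM in the base, and *DEUP1* and *CDC20B* stayed under 0.1 FPKM on average in every region. Of the 9 such genes with a row, 3 were tested and 0 were called in any comparison by limma. For apex against base 1 was lower at an unadjusted p under 0.05, which was *E2F5*, with a log2 fold change of -0.33 (adjusted p = 0.0129 by limma, 0.00203 with the block). For middle against base it had -0.35 (adjusted p = 0.0256 by limma), and the ratio of 1.5 was reached in neither.

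The 5 members with the highest means over all libraries were *CFAP20*, *DNAL4*, *CFAP36*, *CFAP97* and *DNAL1*, at 8.45 to 55.5 FPKM, and their apex over base ratios lay between 1.00 and 1.08. The 95% intervals of apex over base, on the log2 scale, ran from -0.24 to 0.24 for *CFAP97* and from -0.23 to 0.30 for *DNAL1*, and those of the other 3 stand beside their values. The other 41 members with a base mean above 0 had a median ratio of 2.17, with 32 of them at 1.5 or more and 1 under 1. The median ratio over all tested genes was 0.997, and the share of all genes that reached 1.5 is not given here. The cut at 5 is a choice on which the contrast depends. *DNALI1*, the next highest at 7.69 FPKM, had a ratio of 1.84.

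The difference between the middle and the base was smaller than that between the apex and the base. Its median log2 fold change over the detected members was 0.22, against 0.44 for the apex over the base and 0.14 for the apex over the middle. *CFAP52* and *DNAAF1* were called, both higher in the middle, where 4.39% of the tested genes were called in either direction and 2.93% as higher. *CFAP52* had a middle over base log2 fold change of 1.05 ± 0.20 (adjusted p = 0.0209 by limma), and *DNAAF1* one of 0.59 ± 0.14 (adjusted p = 0.0412 by limma). With the replicate block 10 members were called, all higher in the middle, where 9.87% of the tested genes were called in either direction and 7.63% as higher. With no filter, 2 members were called without the block among 3.12% of all detected genes, and 16 with it among 8.23%. The 2 were *CFAP52* and *CFAP61*, and *DNAAF1* was lost there (adjusted p = 0.0610 by limma). Among the tested members the block added *CCDC39*, *CFAP45*, *CFAP57*, *CFAP70*, *DNAI2*, *LRRC6*, *RSPH1* and *RSPH9*. Every middle library was above every base library for 15 members, against 12.6% of all detected genes. The calls of *CFAP52* and *DNAAF1* without the block were lost without base replicate 1, base replicate 2 or middle replicate 3, leaving 0 members. In these fits 0.981%, 0.636% and 0.544% of all tested genes were called, against 4.39% with all libraries. Without base replicate 3 or middle replicate 2, 4 members were called, among 4.52% and 5.31% of all tested genes. Without apex replicate 1, apex replicate 3 or middle replicate 1, *DNAAF1* was lost, and *TEKT1* was gained in the last of these.

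Between the apex and the middle, 0 members were called without the block, and 0.0613% of all tested genes were. At an unadjusted p under 0.05, 12 of the 31 tested members passed, with 9.01% of all tested genes. With the block, 7 members were called, all higher in the apex, where 2.11% of the tested genes were called in either direction and 1.43% as higher. With the block and no filter, 11 members were called among 1.59% of all detected genes. The 7 were *CFAP52*, *DNAH1*, *DNAI1*, *DNAI2*, *RSPH1*, *RSPH9* and *SPAG6*, with adjusted p between 0.0175 and 0.0496 by limma. In the fit with the block, *RSPH9* had an apex over middle log2 fold change of 0.80 ± 0.14 (SE), *DNAH1* one of 0.79 ± 0.14 and *DNAI1* one of 0.62 ± 0.10. Without it their adjusted p was 0.366, 0.285 and 0.172 by limma. Every apex library was above every middle library for 14 members, against 6.64% of all detected genes. The 3 comparisons share their libraries and are not independent of each other.

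Libraries of the same number moved together in these genes. Replicate 2 was the lowest of its region for 33 of 47 members in the apex, 25 of 47 in the middle and 22 of 46 in the base, and replicate 3 was the highest for 22 members in the apex, 26 in the middle and 28 in the base. Over the tested members, residuals of same-numbered libraries correlated at 0.406 to 0.735 (median 0.596, 9 pairs, across genes, which are not independent). Markers of other cells also moved with the number. Of the 19 hair cell markers, replicate 2 was the lowest of its region for 18 in the apex, 16 in the middle and 16 in the base, and replicate 3 the highest for 16, 18 and 18. The neuron markers summed to 1535 FPKM in apex replicate 2, against 229 and 330 FPKM in apex replicates 1 and 3, and to 2901 FPKM in middle replicate 2 and 677 FPKM in base replicate 2, each the highest of its region. The part of these cells in the order of the replicates was not tested.

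Of 56 motile cilium genes listed that the rule did not name, 44 had a row and 35 were tested. By limma 15 were higher in the apex than in the base and 0 lower, where 7.15% of all tested genes were called as higher, and 19 and 0 with the block, where 9.57% were. The filter favours genes that are high in the apex here too. At an unadjusted p under 0.05, 26 were higher and 1 lower. The lower one, at -0.39 on the log2 scale, passed the adjusted p (0.00825 by limma, 0.00308 with the block) but did not reach the ratio of 1.5. The list's median log2 fold change over the detected genes was 0.39. *RIBC2*, which codes for a protein inside the doublet, had 5.56, 2.35 and 4.87 FPKM in the apex, 0.437, 0.248 and 0.452 FPKM in the middle and 0.343, 0.116 and 0.618 FPKM in the base. Middle and base overlapped, and only the apex stood apart (apex over base 1.91 ± 0.26, adjusted p = 0.00209 by limma). *ENKUR*, another gene of this list, had 3.63 ± 0.322 FPKM in the apex, 2.16 ± 0.688 FPKM in the middle and 1.23 ± 0.154 FPKM in the base (SD, n = 3 each). *LRGUK*, *NME5*, *ROPN1L*, *TTC25*, *ARMC4*, *ZMYND10*, *PIH1D3*, *EFCAB1*, *FAM183A*, *MORN2* and *MORN5* were also among the genes called. Of the listed RFX factors, which act with *FOXJ1* on ciliary genes, *RFX2* averaged 2.55 FPKM in the apex, 2.23 FPKM in the middle and 1.79 FPKM in the base, and *RFX3* averaged 5.41 FPKM in the apex, 5.69 FPKM in the middle and 6.42 FPKM in the base. Neither was called.

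Intraflagellar transport carries cargo in all cilia, motile or not. Of 21 tested genes for it, 0 were called for apex against base by limma without or with the block. At an unadjusted p under 0.05, 3 were higher and 1 lower, and the median log2 fold change was 0.08. *IFT172* and *IFT22* had an adjusted p of 0.0319 and 0.00931 and log2 fold changes of 0.37 and 0.41, and did not reach the ratio of 1.5. The summed FPKM of the 21 genes was 389 to 400 in the apex, 368 to 387 in the middle and 366 to 374 in the base.

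**Figure D4:**
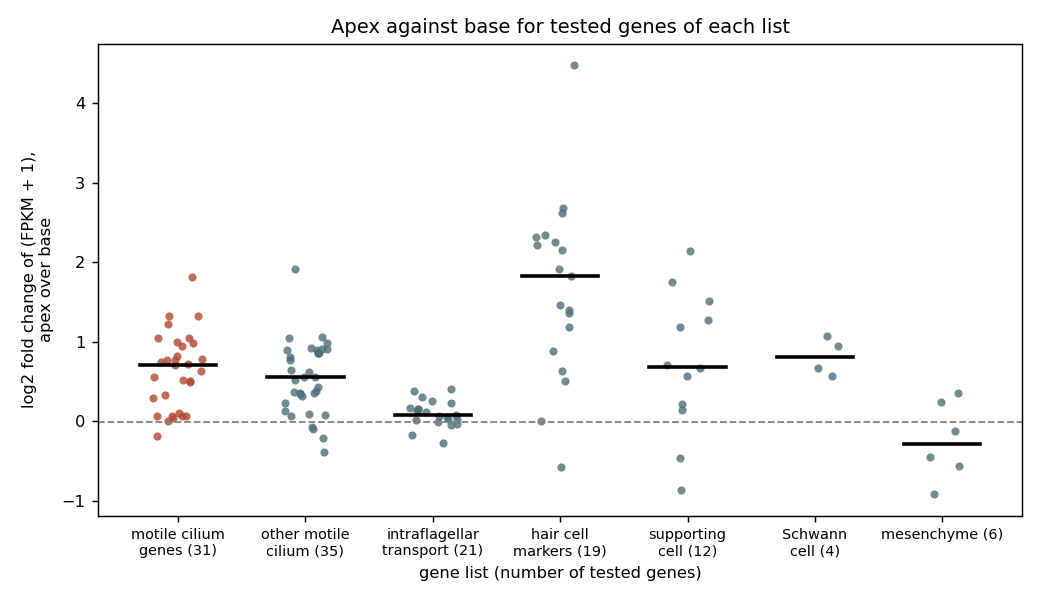
Log2 fold change of (FPKM + 1) of the apex over the base for the tested genes of each list. Points are genes, black bars the median of the list, and the dashed line the median of all 13045 tested genes. The tested motile cilium genes have a median of 0.71, which is favoured by the filter, and the 47 detected members have 0.44. Intraflagellar transport genes have a median of 0.08, and hair cell markers reach a median of 1.83.

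The members were spread over 22 chromosomes or contigs. Chromosome 18 held 6 of them (*CCDC40*, *CFAP52*, *DNAH9*, *DNAI2*, *FOXJ1* and *TEKT3*), which is 12.5% of the members against 1.56% of all genes in the table. The genes in the table include the 11868 without a symbol, which could not be members. Of these 6 members, *CFAP52*, *DNAH9* and *DNAI2* were called for apex against base without the block. Among all 48 members 18 were, and 11.8% of all tested genes, and *DNAH9* passed the filter only through its apex mean.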

How the data were processed

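RNA-seq libraries of the apex, middle and base of the basilar papilla were grouped by the region and replicate number in their titles. The authors used STAR v2.5.4b for alignment to galGal5 with the annotation of Ensembl release 91, and used Cuffdiff v2.2.1 to make the deposited FPKM values, 1 for each gene in each library. No columns of other samples were in the table. Loci are given as in the table, which does not state how the first base is counted.

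The log2(FPKM + 1) values of all 9 libraries entered 1 linear model by region in limma 3.58.1 (R 4.3.3), and eBayes was run with an intensity trend. Tests were two-sided, with Benjamini-Hochberg adjustment over the 13045 genes whose mean reached 1 FPKM in any region. A DEG needed an adjusted p below 0.05 and means that differed 1.5 times or more. The pseudocount of 1 understates the change of low genes. limma replaces the test of Cuffdiff, which needs alignments. The paper reports a range of read pairs per replicate but no value for each library. Depth per library was therefore estimated only in relative terms, and the estimate was not checked against that range. No counting interval was computed.

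The members, roles and lists were chosen with earlier results of these data known. Values per library are given for *FOXJ1*, each member called in any comparison without the block, and the highest member of each role. Other members are given by their means, counts or ranges, and genes of other lists were named after their values were seen. Some genes of those lists are not reported here by name. The methods do not state that same-numbered libraries share their chickens, but the numbers of animals and replicates imply it. Deviations of same-numbered libraries from their region means correlated at 0.368 to 0.660 (median 0.462, 9 pairs), so a fit with that number as a block was also made. Where it changed a call, the text gives its call or count, and its adjusted p for only some of the genes. Alternatives were another pseudocount, other filters, normalizations and fits, and fits without each library or replicate number. Promoter and protein sequences were not used here.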

Additional observations from a re-analysis of the deposited data

How the results depend on the processing

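For apex against base, the 18 members called without the replicate block were 10 to 18 when 1 library was left out. In those fits 7.63% to 12.9% of all tested genes were called. Without the libraries numbered 1, 2 and 3, the called members were 1, 16 and 6, among 4.76%, 9.55% and 7.1% of all tested genes. They were 29 with the replicate block and no filter, among 13.3%, a pair of choices added after seeing the data. The replicate block alone gave 20, among 15.1% of all tested genes. Quantile normalization and the filter on 6 libraries gave 13 each, among 11.3% and 11.8%, and that filter left 24 members tested. The fit of the 6 libraries compared gave 16, among 12.3%. A pseudocount of 0.1, median-ratio scaling and no intensity trend gave 18 each, among 11.9%, 11.8% and 12.2%. Having no ratio criterion also left 18, a fit for which no share over all genes is given. For middle against base, the 2 called members were 10 with the replicate block, among 9.87% of all tested genes. With the replicate block and no filter they were 16, among 8.23% of all detected genes. A pseudocount of 0.1 gave 4 and no intensity trend 5, among 4.57% and 4.25% of all tested genes. Quantile normalization and the fit of the 6 libraries compared each lost *DNAAF1* and gave 1, among 4.15% and 1.93%. Without 1 library, 0 to 4 members were called, among 0.544% to 5.31% of all tested genes. Without any of the 3 replicate numbers 0 were called, where 0%, 0.921% and 0.576% of all tested genes were called without replicates 1, 2 and 3. For apex against middle, the count of 0 was 7 with the replicate block and 11 with the replicate block and no filter, and 0 under the other alternatives run. No member was called as lower in any of these fits. The median log2 fold change of 0.44 over detected members was 0.92 with a pseudocount of 0.1, 0.33 with quantile normalization, 0.57 with the filter on 6 libraries and 0.71 over the members tested. Quantile normalization put *CFAP97*, *DNAL1*, *HYDIN* and *TEKT2* below 0 for apex against base, beside *DNAAF2*, and 26 of 31 tested members above 0. For the named members and apex against base, 452 values stayed on their side of the threshold and 65 were no longer called. Another 2, both of *CCDC39* with the block, became called, and no called value changed direction. These counts leave out fits in which a member was not tested. *DNAH1*, *DNAH9*, *DRC7*, *RSPH1* and *TEKT1* lost their calls in that way with the filter on 6 libraries. The causes were not tested, except that leaving out libraries leaves fewer samples. The planned search for promoter motifs was not run. The number of fragments behind each value is not part of the table, so no limit from depth was computed.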
